A study of Mus musculus with 6 samples.

Results

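The genes described here encode enzymes of glycolysis in mouse liver. They are those probe sets of the deposited array table that the probe annotation assigns to 1 of 8 listed genes (Gpi1, Pfkl, Tpi1, Pgk1, Pgam1, Eno1, Pklr and Ldha), with control probes left out. The annotation assigned 7 probe sets to 6 of these genes, of 8251 genes with a probe set in all. Pklr had 2 probe sets, and Pfkl, Tpi1, Pgk1, Pgam1 and Ldha had 1 each. No probe set was assigned to Gpi1 or Eno1 in the annotation used here, so both enzymes were not analysed here. All 6 measured genes passed the filter on dim genes, as did 4844 genes in all.

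Liver total RNA was read on 6 one-colour arrays, with 1 array for each of 3 genotypes at each of 2 circadian times, in male mice aged 8 to 10 weeks. The groups were Clock mutant CT14, Clock mutant CT02, Cry-deficient CT14, Cry-deficient CT02, wild type CT14 and wild type CT02, where CT14 lies 14 h and CT02 2 h after the start of the subjective day. The labels give a C57BL/6 background for wild type only, name no allele of the Clock mutant, and call the Cry-deficient CT02 animals double knockouts of Cry1 and Cry2. Whether an array held RNA of 1 mouse or of a pool is not stated in the labels. With 1 array per group no difference has a replicate check, and no test was made. Levels are scaled intensities, in units that hold only within a probe set, and values under a floor of 606 units were not read as levels.

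Glycolysis splits glucose into pyruvate, which the liver oxidises, turns into fat or returns as lactate. Hepatocytes run the pathway forward after meals and the reverse route, gluconeogenesis, in fasting. Most steps are shared by both routes. Phosphofructokinase (Pfkl) and pyruvate kinase (Pklr) act in the forward direction only and are the control points, while Tpi1, Pgk1 and Pgam1 encode reversible enzymes between them and Ldha a subunit of lactate dehydrogenase. Pklr is transcribed from an upstream start in red cells and a downstream start in liver. The liver promoter is known for its carbohydrate response element, which the factor ChREBP binds together with its partner Mlx. CLOCK and BMAL1 bind the E-box CACGTG, and the cryptochromes repress them.

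The regions upstream of Pklr and Ldha are shown because Pklr was the member that differed most between the arrays and Ldha the member whose window held the E-box. Both are the 250 bases before a start site, from the RefSeq promoter table of build GRCm38.p6, 5′ to 3′. The Pklr sequence lies before the downstream start at chr3:89136373-89136622 on the plus strand, with the inverted pair CACGNG and CNCGTG, 5 bases apart, in capitals. The Ldha sequence lies at chr7:46845554-46845803 on the plus strand, with each CACGTG in capitals.
Pklr: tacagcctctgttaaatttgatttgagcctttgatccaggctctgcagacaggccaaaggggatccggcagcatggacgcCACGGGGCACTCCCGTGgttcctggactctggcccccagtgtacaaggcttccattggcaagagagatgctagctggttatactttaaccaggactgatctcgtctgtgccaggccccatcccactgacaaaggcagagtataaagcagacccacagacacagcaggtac
Ldha: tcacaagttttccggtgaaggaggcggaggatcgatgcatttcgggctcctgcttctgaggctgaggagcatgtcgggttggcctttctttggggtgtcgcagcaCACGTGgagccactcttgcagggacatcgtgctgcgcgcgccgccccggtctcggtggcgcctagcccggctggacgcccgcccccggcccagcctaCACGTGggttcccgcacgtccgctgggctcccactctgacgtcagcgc

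All 8 listed genes had a window in that table, 12 windows in all, each reaching 50 bases past the start. Searched on both strands, CACGTG was found in 1 of the 12, that of Ldha, where the matches begin 145 and 48 bases before the start. Over all 32851 windows 7.15% held it. CACGTT and the D-box TTATGNAA were in none of the 12, against 4.68% and 3.38% of all windows. AGGTCA was in 3 of the 12 (Tpi1, Eno1 and the upstream start of Pklr), against 16.3% of all. The inverted pair in the Pklr window begins 170 bases before the start and was present in 15 windows in all (0.0457%). It was searched because the element of this promoter is known, after the levels were seen, so its presence there is a description. None of the other motifs searched was in that window.

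Pklr varied most between the arrays. On its brighter probe set it read 1796 and 3979 units in the Clock mutant at CT14 and CT02, 1463 and 846 in Cry-deficient mice, and 3483 and 1545 in wild type. From the highest array, Clock mutant CT02, to the lowest, Cry-deficient CT02, the range was 4.70-fold, wider than that of 97.1% of the kept genes. The other 5 genes had ranges of 1.27-fold to 1.49-fold, where the median of all kept genes was 1.77-fold and that of the brightest 10% of them 1.40-fold. Tpi1, Pgk1, Pgam1 and Ldha are bright probe sets, above 92.0% or more of all probe sets by mean level, and Pfkl above 81.6%.

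**Figure D1:**
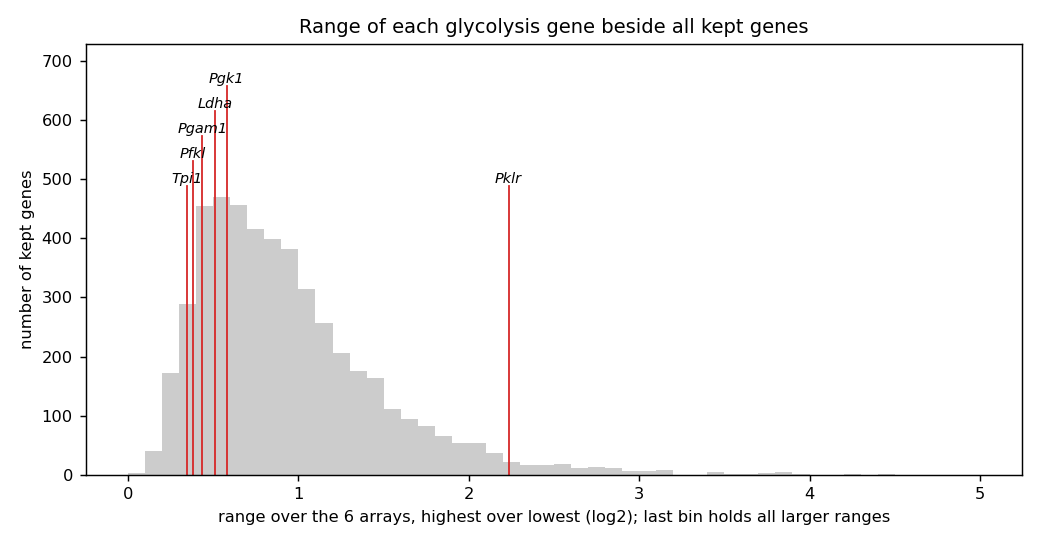
Histogram of the range of each kept gene over the 6 arrays (x axis, highest over lowest level in log2; y axis, number of genes), with a red line for each glycolysis gene. Pklr lies at 2.23 in the right tail, and the other 5 genes lie between 0.35 and 0.58, left of the median of 0.83.

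The levels of the first control point and of the enzymes after it can be read array by array. Pfkl, the liver subunit of phosphofructokinase, read 3737 and 2901 units in the Clock mutant at CT14 and CT02, 3780 and 3302 in Cry-deficient mice, and 3267 and 3354 in wild type. Its lowest value was on the Clock mutant CT02 array and its highest on the Cry-deficient CT14 array, 1.30-fold apart. Tpi1, which encodes triosephosphate isomerase, read 22199 and 28219 units in the Clock mutant at CT14 and CT02, 24212 and 24543 in Cry-deficient mice, and 23594 and 23748 in wild type. Both wild-type and both Cry-deficient arrays lay close together, and only the Clock mutant arrays stood to either side.

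Pgk1, the gene of the first ATP-yielding enzyme of the pathway, read 12690 and 18140 units in the Clock mutant at CT14 and CT02, 16235 and 18948 in Cry-deficient mice, and 15880 and 15734 in wild type. Pgam1, which encodes phosphoglycerate mutase, read 6739 and 7752 units in the Clock mutant at CT14 and CT02, 9110 and 8630 in Cry-deficient mice, and 7660 and 7626 in wild type. The wild-type arrays differed 1.01-fold for Pgk1 and by less for Pgam1, and for both genes the Clock mutant CT14 array was the lowest of the 6. Ldha read 17326 and 24655 units in the Clock mutant at CT14 and CT02, 18751 and 23239 in Cry-deficient mice, and 18431 and 17899 in wild type. The 2 mutant CT02 arrays were the highest for Ldha, and the other 4 arrays lay between 17326 and 18751.

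**Figure D2:**
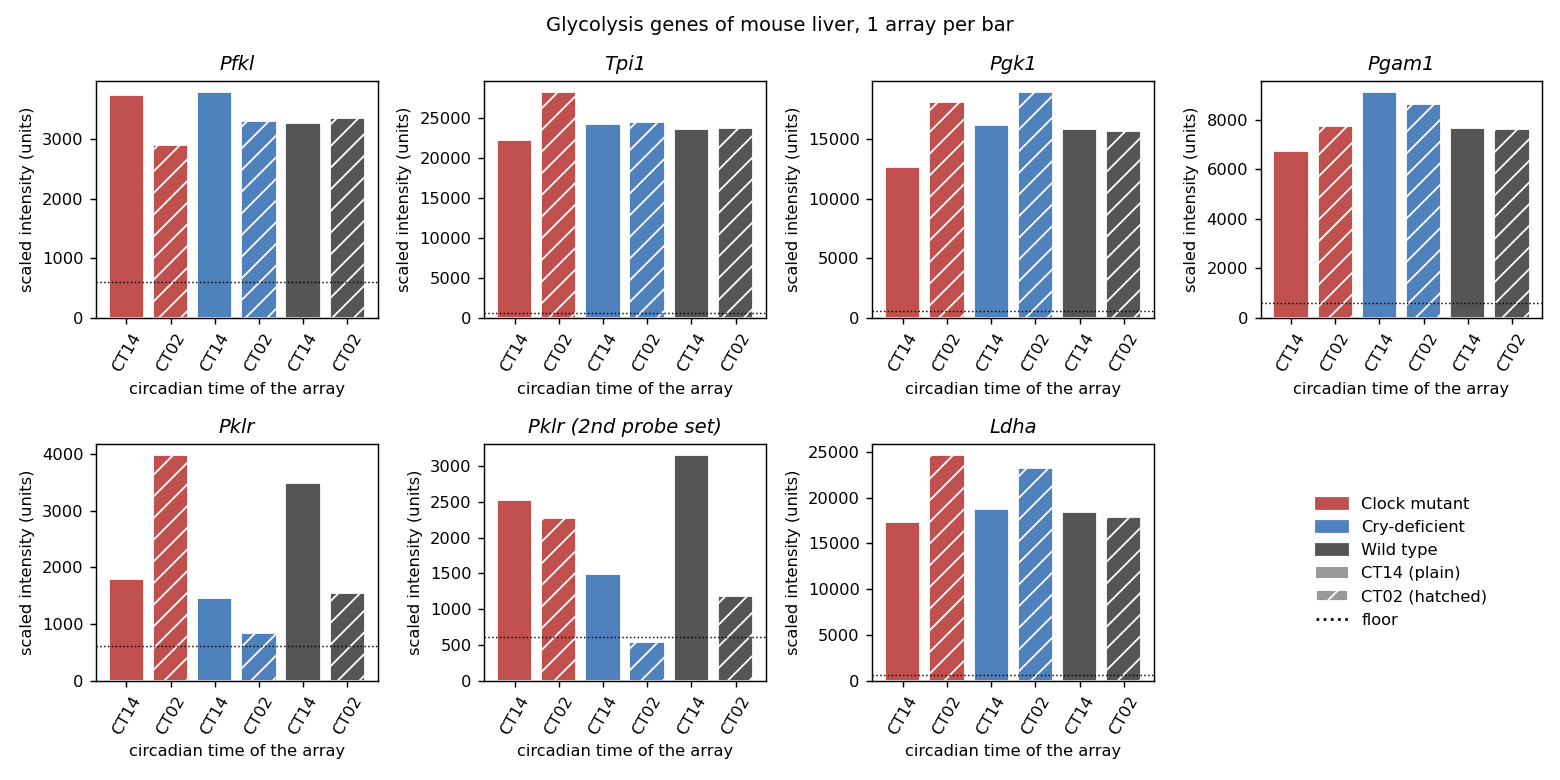
Scaled intensity (y axis, units) of the 7 glycolysis probe sets on each of the 6 arrays (x axis, circadian time; colour, genotype; hatching, CT02), with the floor of 606 units dotted. The Pklr bars differ up to 4.70-fold, those of its second probe set cross the floor on the Cry-deficient CT02 array, and the bars of the other genes differ by at most 1.49-fold.

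The arrays themselves differed in ways that touch these genes. Before scaling the mean intensity was 2182 and 1637 in the Clock mutant at CT14 and CT02, 2486 and 2195 in Cry-deficient mice, and 2382 and 2325 in wild type, so the Clock mutant CT02 array was the dimmest. Control probes at the 3′ end of Actb read 2.68 times those at its 5′ end on that array, which bears on RNA length. The Cry-deficient CT02 array followed at 1.70, with the other 4 from 0.84 to 1.15. For the probes of Gapdh, itself a glycolysis gene, the same quotient reached 2.37 on the Cry-deficient CT02 array and stayed from 0.56 to 0.72 elsewhere. Left unscaled, the log2 ratios of all genes had a median of 0.45 over time in the Clock mutant, 0.20 over time in Cry-deficient mice, -0.52 for the Clock mutant against wild type at CT02 and -0.11 for Cry-deficient mice against wild type at CT02. The 7 measured hepatocyte markers were all kept, and they summed to 74079 and 116573 units in the Clock mutant at CT14 and CT02, 90909 and 108378 in Cry-deficient mice, and 93033 and 100340 in wild type. Their part in the results below was not tested.

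In wild type, CT14 was set against CT02 to ask whether glycolysis genes differ by time of day. Pklr was 2.25-fold higher at CT14 on its brighter probe set and 2.65-fold higher on the second (3154 against 1190 units). The other 5 genes had log2 ratios between -0.04 and 0.04. Pklr was thus the 1 member of 6 at least 2-fold apart, where 4.56% of all 4844 genes were. Its ratio was larger in size than that of 97.0% of them. The median log2 ratio of the 6 genes was 0.01, and that of all genes 0.00. In size the other 5 genes had a median log2 ratio of 0.01, against 0.19 over all genes.

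In the Clock mutant the same contrast gave different answers on the 2 probe sets of Pklr. The brighter one was 2.22-fold lower at CT14 (1796 against 3979 units), while the second was 1.11-fold higher (2527 against 2270 units). Both probe sets lay above the floor on both arrays. Among all genes with 2 probe sets above the floor, 379 in number, the log2 ratio of this contrast had an SD of 0.46 within a gene. This is the spread of a single probe set, and the difference between 2 probe sets spreads more widely. The 2 log2 ratios of Pklr were -1.15 and 0.15. Pklr on its brighter probe set was the 1 of 6 members past 2-fold, where 7.74% of all genes were. On the second probe set, no member was.

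The other enzyme genes of the Clock mutant had log2 ratios of -0.52 (Pgk1), -0.51 (Ldha), -0.35 (Tpi1), -0.20 (Pgam1) and 0.37 (Pfkl) for CT14 over CT02. The brightest 10% of the kept genes (485) had a median of -0.29 in this contrast, which involves the dimmest array. Relative to that median Pgk1 stood at -0.22, Ldha at -0.22, Tpi1 at -0.06, Pgam1 at 0.09 and Pfkl at 0.66. The direction of Tpi1 was turned by quantile normalization (0.01), by lowess correction (0.07) and on the deposited values (0.15), and that of Pgam1 on the deposited values (0.30) as well as by the centring just given. Pgk1, Ldha and Pfkl kept their direction under every setting tried, with smallest sizes of -0.02, -0.01 and 0.31.

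In Cry-deficient mice Pklr was 1.73-fold higher at CT14 on the brighter probe set (1463 against 846 units). The second probe set was at least 2.46-fold higher (1492 units against 535, which is below the floor). On the brighter probe sets no member was 2-fold apart, against 5.55% of all genes. Ldha had a log2 ratio of -0.31 and Pgk1 one of -0.22, where the brightest 10% of genes had a median of -0.16. Pfkl (0.19), Pgam1 (0.08) and Tpi1 (-0.02) lay nearer to 0, and Tpi1 was at 0.19 on the deposited values, at 0.19 after quantile normalization and at 0.20 after lowess correction.

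**Figure D3:**
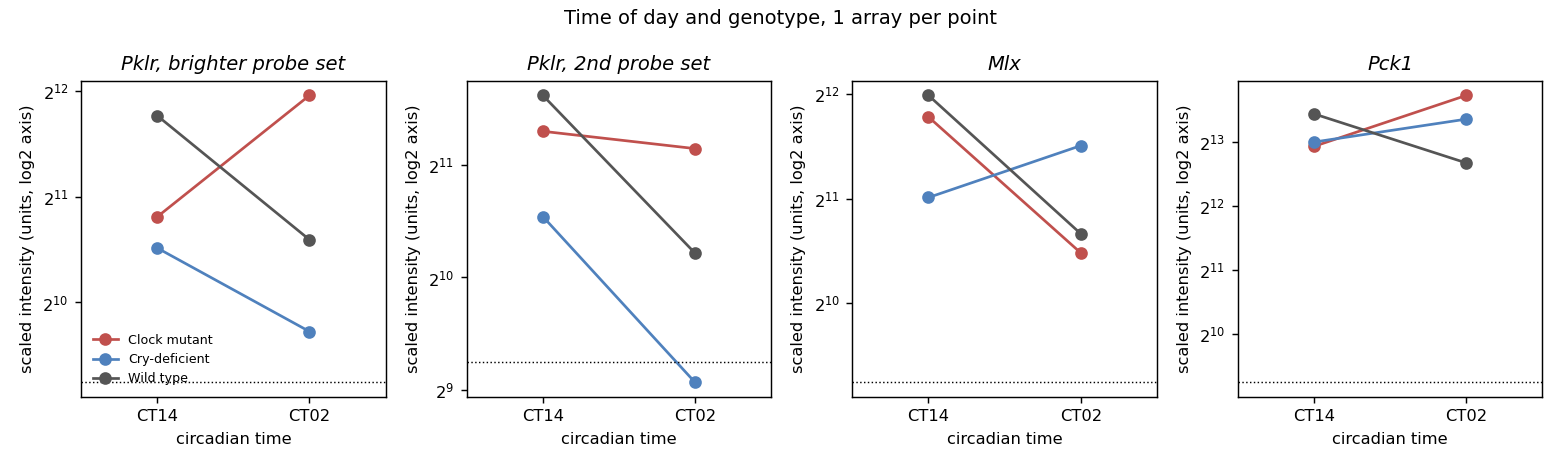
Scaled intensity (y axis, units on a log2 axis) at CT14 and CT02 (x axis) of both Pklr probe sets, of Mlx and of Pck1, with 1 point per array, lines joining arrays of a genotype and the floor dotted. The brighter Pklr probe set is higher at CT14 than at CT02 in Cry-deficient mice and wild type and lower in the Clock mutant, whereas its second probe set read 2527 and 2270 units in the Clock mutant. Mlx is higher at CT14 in the Clock mutant and wild type only, and Pck1 in wild type only.

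Across genotypes, the time ratio of Pklr in the Clock mutant minus that in wild type was -2.32 log2 units on the brighter probe set (-1.15 and 1.17), and -1.25 on the second (0.15 and 1.41). Time ratios of opposite sign that lay at least 2-fold apart occurred in 8.60% of the 4048 genes above the floor on all 4 arrays of the Clock mutant and wild type. For Cry-deficient mice minus wild type it was -0.38 on the brighter probe set (0.79 and 1.17) and -0.11 on the second (1.30 and 1.41). Such opposite ratios occurred there in 7.07% of 4200 genes, and in no glycolysis member. For Ldha the difference in time ratio from wild type was -0.55 in the Clock mutant and -0.35 in Cry-deficient mice. For Pfkl it was 0.40 and 0.23. The brightest 10% of genes had median time ratios of -0.29 (Clock mutant), -0.16 (Cry-deficient) and -0.01 (wild type). Relative to these medians, in the same order, Ldha stood at -0.22, -0.15 and 0.05, and Pfkl at 0.66, 0.35 and -0.03. After quantile normalization the time ratios of Ldha were -0.17, -0.12 and 0.04. The difference for Ldha thus depends on the scaling, and its cause was not tested. Taking all 3 genotypes as pairs of times, the 3 CT14 arrays and the 3 CT02 arrays did not separate for any member, where 8.28% of all genes did.

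The Clock mutant was next set against wild type at each time. At CT02 Pklr was 2.58-fold higher in the Clock mutant (3979 against 1545 units) and 1.91-fold higher on the second probe set (2270 against 1190 units). It was the 1 member at least 2-fold apart on the brighter probe sets, against 11.8% of all genes. At CT14 Pklr was 1.94-fold lower in the Clock mutant (1796 against 3483 units) and 1.25-fold lower on the second probe set (2527 against 3154 units). No member was 2-fold apart at CT14, against 9.76% of all genes. Both probe sets thus lay above wild type at CT02 and below it at CT14, by different amounts.

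The members were also set beside the bright genes of the array in these comparisons. At CT02 the median log2 ratio of the 6 members for the Clock mutant against wild type was 0.23, as was that of the brightest 10% of all genes (0.23). Relative to the latter, the members other than Pklr stood from -0.44 (Pfkl) to 0.23 (Ldha). Their log2 ratios were 0.46 (Ldha), 0.25 (Tpi1), 0.21 (Pgk1), 0.02 (Pgam1) and -0.21 (Pfkl). On the deposited values, with their all-gene median of -0.52, the first 4 had the opposite sign (Ldha -0.09, Tpi1 -0.30, Pgk1 -0.35, Pgam1 -0.53), quantile normalization turned Tpi1 (-0.02) and Pgk1 (-0.01), lowess correction Tpi1 (-0.06), and centring on the brightest 10% turned Pgk1 (-0.02) and Pgam1 (-0.20). At CT14 Pgk1 stood at -0.32, Pgam1 at -0.18, Ldha at -0.09, Tpi1 at -0.09 (0.01 after lowess correction) and Pfkl at 0.19. The brightest 10% of genes had a median of -0.06 there. For no member did both Clock mutant arrays lie above both wild-type arrays, or both lie below them, where 48.2% of all genes separated in this way. Arrays on either side of wild type, as for Tpi1 (22199 and 28219 units against 23594 and 23748), do not count as separated. On the deposited values 4 members did (Tpi1, Pgk1, Pgam1 and Ldha, all lower in the Clock mutant), and 2 after quantile normalization (Tpi1 and Pgk1, lower).

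The Cry-deficient arrays had less Pklr signal than the wild-type arrays at both times. At CT02 it was 1.83-fold lower (846 against 1545 units) and at least 1.96-fold lower on the second probe set. At CT14 it was 2.38-fold lower (1463 against 3483 units) and 2.11-fold lower on the second probe set (1492 against 3154 units). No member was 2-fold apart at CT02 on the brighter probe sets, against 6.69% of all genes, and Pklr was the 1 member that was so at CT14, against 4.73%. Under the 11 alternative settings its log2 ratio lay between -0.996 and -0.80 at CT02 and between -1.25 and -1.08 at CT14. In liver RNA, fewer cells of a type and less RNA per cell cannot be told apart.

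Most of the other enzyme genes lay slightly higher in Cry-deficient mice than in wild type. At CT02 Ldha had a log2 ratio of 0.38, Pgk1 0.27, Pgam1 0.18, Tpi1 0.05 and Pfkl -0.02, beside a median of 0.11 for the brightest 10% of genes. At CT14 Pgam1 stood at 0.25, Pfkl at 0.21, Tpi1 at 0.04, Pgk1 at 0.03 and Ldha at 0.02, beside -0.03 for the brightest 10%. Tpi1 at CT02 had the opposite sign on the deposited values (-0.08), after quantile normalization (-0.08), after lowess correction (-0.09) and when centred on the brightest 10% (-0.06), and Pfkl after lowess correction (0.03). Both Cry-deficient arrays lay above both wild-type arrays for Tpi1, Pgk1, Pgam1 and Ldha and below them for Pklr, 5 of 6 members, where 38.4% of all genes separated. The gaps were narrow, as for Tpi1 with 24212 and 24543 units against 23594 and 23748. Tpi1 no longer separated on the deposited values, after quantile normalization or after lowess correction, nor did Pklr on its second probe set (1492 and 535 units against 3154 and 1190).

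**Figure D4:**
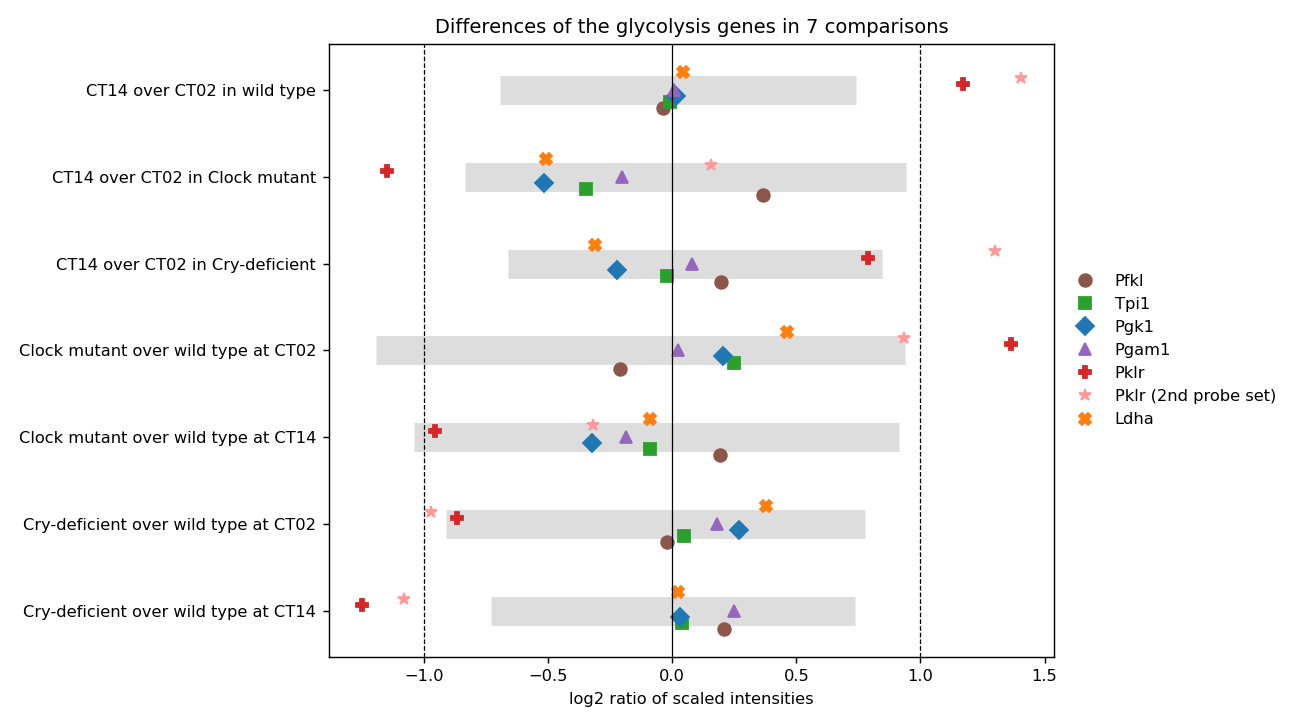
Log2 ratios (x axis) of the 7 glycolysis probe sets in the 7 comparisons (y axis), with grey bars from the 5th to the 95th percentile of all kept genes and dashed lines at 2-fold. The brighter Pklr probe set lies beyond the grey bar in 4 of the 7 comparisons, and every other member lies inside it, with the largest size at 0.52. For the Clock mutant over time (0.15) and against wild type at CT02 (0.93) the second Pklr probe set lies inside the bar, unlike the brighter. For Cry-deficient mice over time (at least 1.30) and against wild type at CT02 (-0.97 or lower) it lies beyond the bar, where the brighter lies inside.

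Red cells carry the other form of pyruvate kinase encoded by Pklr. Of 8 red cell markers 4 were measured and 2 kept, and these summed to 28236 and 23787 units in the Clock mutant at CT14 and CT02, 26551 and 25609 in Cry-deficient mice, and 24881 and 28276 in wild type. Slc4a1 and Epb42, which encode red cell membrane proteins, were below the floor on every array. The haem synthesis gene Alas2 read 13071 and 9873 units in the Clock mutant at CT14 and CT02, 8120 and 4590 in Cry-deficient mice, and 7429 and 8637 in wild type. Its lowest array was that on which Pklr was lowest, Cry-deficient CT02. Hba-a1, the other kept marker, went the other way and was highest on that array, at 21019 units. On the others it read from 13914 units (Clock mutant CT02) to 19638 (wild type CT02). Their part in the Pklr levels was not tested, and the sources used here do not say which transcript each Pklr probe set reads.

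Among the members, Pgk1 and Ldha had the most similar patterns over the 6 arrays, with a root mean square difference of 0.11 between their centred log2 levels. All pairs without Pklr lay between 0.11 and 0.30, and all pairs with Pklr between 0.73 and 0.84. Of the 3897 other genes above the floor on all arrays, the nearest to Pklr were Dnajb9, an endoplasmic reticulum chaperone gene (0.25), Hspbp1 (0.32) and Nr2c2ap (0.32). Dnajb9 read 4458 and 8120 units in the Clock mutant at CT14 and CT02, 4136 and 3043 in Cry-deficient mice, and 9532 and 4455 in wild type. Like the brighter Pklr probe set, it was higher at CT14 in Cry-deficient mice and wild type and lower in the Clock mutant. It was picked for likeness to that probe set on these same arrays, so the shared directions follow from the choice. The second Pklr probe set was not lower at CT14 in the Clock mutant (2527 against 2270 units).

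Of 22 other glycolysis genes listed, 16 were measured and 8 kept (Hk1, Pfkm, Aldoa, Aldoc, Bpgm, Minpp1, Eno3 and Pkm). Gapdh was read on control probes only, and its middle ones read 20769 and 27708 units in the Clock mutant at CT14 and CT02, 18186 and 19061 in Cry-deficient mice, and 20028 and 21153 in wild type. None of the 8 kept genes was 2-fold apart between the times in any genotype. Of all genes 7.74% were in the Clock mutant, 5.55% in Cry-deficient mice and 4.56% in wild type. Aldoc was below the floor at both times in the Clock mutant and wild type, as was Pkm in Cry-deficient mice. Their time ratios there were fixed at 0, could not pass 2-fold, and enter the medians as 0. The 8 genes had medians of 0.06 in the Clock mutant (0.41 on the deposited values), -0.10 in Cry-deficient mice (0.04 on the deposited values) and -0.03 in wild type. Pkm, which encodes the pyruvate kinase of other tissues, was 2.01-fold higher in the Clock mutant than in wild type at CT02 (1687 against 839 units) and at least 2.27-fold at CT14 (1377 against 345 units). At CT02 it was under 2-fold on the deposited values and after lowess correction. Its second probe set was below the floor in both genotypes at CT02, and at CT14 it read 1015 units in the Clock mutant and 333, below the floor, in wild type. That probe set was highest on the Cry-deficient CT02 array, at 1226 units, and read 599, below the floor, in Cry-deficient mice at CT14. Aldoc, an aldolase gene named after its values were seen, was at least 3.30-fold higher in Cry-deficient mice than in wild type at CT02 (1999 against -268 units) and at least 5.07-fold at CT14 (3072 against 225 units). It was below the floor on every Clock mutant and wild-type array. Aldoc thus passed the filter on dim genes only through the Cry-deficient arrays, and Pkm, on its brighter probe set, only through the Clock mutant arrays. That each was higher there is tied to its being kept.

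All 6 kept genes of glucose entry and pathway switching, of 13 listed, were higher at CT14 in wild type. Their median was 0.55 in log2, against 0.00 over all genes, and the share of all genes higher at CT14 was not taken. For Pfkfb3, 1 of the 6, the wild-type CT02 value (549 units) is below the floor. Mlx and Adpgk were the 2 past 2-fold, where 4.56% of all genes were. Over time in Clock mutants 3 were higher and 3 lower (median -0.13, 0.01 after quantile normalization and 0.37 on the deposited values), and in Cry-deficient mice 2 were higher and 4 lower (median -0.02, 0.18 on the deposited values). All genes had a median of 0.00 in each mutant on this scaling. On the deposited values it was 0.45 in the Clock mutant and 0.20 in Cry-deficient mice. Mlx, the partner of ChREBP, was 2.46-fold higher at CT14 in the Clock mutant (3516 against 1430 units), 1.41-fold lower in Cry-deficient mice (2062 against 2907 units) and 2.50-fold higher in wild type (4055 against 1623 units). Adpgk, which encodes an ADP-dependent sugar kinase, was 2.42-fold higher at CT14 in wild type (2220 against 917 units), and differed 1.06-fold in Cry-deficient mice (1668 against 1776 units). At CT14 it was at least 3.66-fold lower in the Clock mutant than in wild type (181 against 2220 units).

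Downstream of pyruvate, 9 of 17 listed genes were kept, and on this scaling 1 of them passed 2-fold in any comparison. Single comparisons had from 4.56% to 11.8% of all genes past 2-fold, and the share in any of the 7 was not taken. Pdk4, which encodes a kinase that shuts off pyruvate dehydrogenase, was 2.89-fold lower at CT14 in the Clock mutant (630 against 1818 units) and 2.36-fold higher there than in wild type at CT02 (1818 against 770 units), the last under 2-fold on the deposited values. On the reverse route, 5 of 7 listed gluconeogenesis genes were kept. Pck1, the gene of phosphoenolpyruvate carboxykinase, read 7836 and 13613 units in the Clock mutant at CT14 and CT02, 8210 and 10524 in Cry-deficient mice, and 11139 and 6546 in wild type. It was 2.08-fold higher in the Clock mutant than in wild type at CT02, but under 2-fold on the deposited values and after quantile normalization. G6pc, which encodes glucose-6-phosphatase, was 1.48-fold lower at CT14 in wild type and differed by at most 1.40-fold in the other 6 comparisons.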

How the data were processed

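The deposited table holds an intensity for each of 12488 probe sets on each array, 66 of the probe sets being controls. The deposited intensities are whole numbers from -7799 to 33426, which takes a subtraction of background or mismatch signal, and how the authors made them is not given in these sources. Titles gave the group of all 6 arrays. To scale the arrays, the median ratio of each to their geometric mean was taken over 6065 bright probe sets, positive on all, and divided out. Scaled values below the pooled median (606) were raised to that floor, then put on a log2 scale, and folds against it are given as at least. Symbols came from the platform annotation, matched through gene numbers to a RefSeq table of GRCm38.p6 (10839 of 10855 probe sets with 1 symbol matched). A gene was read on its brightest probe set, and genes with a mean at or above the floor were kept. A count past 2-fold is set beside percentages over all kept genes. The alternatives are given in the closing section. The procedure was tested on simulated arrays. These had a constant shift per array and equal noise for all probe sets, so they do not bear on shifts that vary with brightness. The members and gene lists were chosen with earlier results of these data known, and genes of the other lists are named where they passed 2-fold above the floor on both arrays, or were chosen as landmarks of the pathway. Analyses used Python 3.11.15, pandas 2.3.3, numpy 2.4.6 and statsmodels 0.14.6.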

Additional observations from a re-analysis of the deposited data

Results flagged for a closer look

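Pklr differed in opposite directions over time in the Clock mutant and wild type, by -2.32 log2 units (mutant minus wild type), on its brighter probe set, and its second probe set gave -1.25 with the same direction in both genotypes. Pck1 did so by -1.56 in the Clock mutant and by -1.13 in Cry-deficient mice against wild type. Mlx did so by -1.82 and Adpgk by -1.37 in Cry-deficient mice against wild type. The time ratio of Adpgk in Cry-deficient mice was only -0.09, so its sign depends on the scaling. All genes had a median of 0.20 in that contrast on the deposited values. Opposite ratios at least 2-fold apart occurred in 8.60% of 4048 genes for the Clock mutant and in 7.07% of 4200 for Cry-deficient mice. With 1 array per group, the flagged differences were not tested.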

How the results depend on the processing

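With 1 array per group no replicate can be left out, and signal over background limits dim genes: the second Pklr probe set read below the floor on 1 array. Of the 420 log2 ratios of the 5 genes other than Pklr under the alternatives, 0 reached 2-fold, and the largest was 0.86 on the deposited values and 0.66 otherwise. Pklr kept its sign under all 11 alternatives in 6 of the comparisons. In the Clock mutant over time it ranged from -1.21 to 0.15, the 0.15 being its second probe set, an alternative chosen after seeing the data. The number of members past 2-fold became 0 in the 4 comparisons in which it was 1, at a 3-fold threshold and with genes filtered at the 75th percentile, which drops Pklr. For the time contrast of the Clock mutant it also became 0 on the deposited values, with the mean of all probe sets, with the second Pklr probe set and when centred on the brightest 10% of genes, which was also added later. For the Clock mutant against wild type at CT02 it became 0 on the deposited values and with the second Pklr probe set. It became 1 for Cry-deficient mice over time with the mean of probe sets, the second Pklr probe set or a 1.5-fold threshold, for the Clock mutant against wild type at CT14 on the deposited values or at 1.5-fold, and for Cry-deficient over wild type at CT02 at 1.5-fold. The median of the members over time in the Clock mutant was -0.43, and 0.0698 on the deposited values, with an all-gene median of 0.45 there. Members whose Clock mutant and wild-type arrays did not overlap numbered 4 on the deposited values and 2 after quantile normalization, against 0. Beyond the alternatives' construction, the cause was not tested. No paired analysis was possible because each group holds 1 array with no replicate number to pair. The CT14 and CT02 arrays of a genotype form 3 pairs, each of another genotype, and no fit over them was made.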
